A study of Mus musculus with 14 samples.

Results

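The signals of 10 genes for parts of the desmosome and the hemidesmosome were followed over 14 Affymetrix MG_U74Av2 arrays of mouse corneal stroma and of cells cultured from it. The 10 genes, Dsp, Ppl, Jup, Pkp1, Dsg2, Dsc2, Perp, Col17a1, Itgb4 and Lama3, were taken by symbol from the platform's annotation, where 14 probe sets stood for them. They are 10 of the 7437 genes with 1 symbol whose mean signal reached 50 in at least 1 group. All 10 passed that filter in tissue, and 4 of them also by a culture group. The 5 tissue arrays were corneal stroma of CD-1 mice, 3 from adults aged 7 to 8 weeks and 2 from postnatal day 10 (P10). The 9 culture arrays were primary stromal cells of adult CD-1 mice in DMEM, with 3 arrays per medium. Keratocyte cultures had 1% platelet-poor horse serum, fibroblast cultures had 10% fetal bovine serum, and myofibroblast cultures had that serum plus 10 ng/ml TGF-beta1. The labels do not say whether replicates came from separate animals or cultures, so p-values measure the spread between these arrays only.

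Desmosomes bind neighbouring epithelial cells to each other. Their cadherins, the desmogleins and desmocollins, reach across the gap between cells, and plakoglobin and plakophilins tie their tails to desmoplakin, which holds the keratin filaments. Hemidesmosomes fasten basal cells to the basement membrane through the integrin alpha6-beta4 and the transmembrane collagen XVII, which meet laminin-332 outside the cell and plectin inside it. The stratified epithelium that covers the cornea is rich in both junctions, whereas stromal keratocytes, which lie between collagen lamellae, are held to lack them.

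RefSeq promoters were at hand for Dsp, Jup and Col17a1. Their 250 bases before the start of transcription are shown because these genes were all lower in every culture than in adult stroma. They code for a plaque protein, a catenin and a hemidesmosome collagen. The sequences run 5′ to 3′ on the gene's strand in build GRCm38.p6. Capitals mark matches, on either strand, to motifs of factors active in epithelium or of the ZEB and SNAI repressors. The Dsp promoter (chr13:38151044-38151293, plus strand) was 72.4% G and C, that of Jup (chr11:100397791-100398040, minus strand) 62.0%, and that of Col17a1 (chr19:47692043-47692292, minus strand) 46.0%.
Dsp: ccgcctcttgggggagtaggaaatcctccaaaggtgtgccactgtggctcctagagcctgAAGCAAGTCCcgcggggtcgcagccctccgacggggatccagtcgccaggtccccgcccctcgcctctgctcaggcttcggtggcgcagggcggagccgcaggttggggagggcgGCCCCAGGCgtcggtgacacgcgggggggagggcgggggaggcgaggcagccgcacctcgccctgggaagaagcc
Jup: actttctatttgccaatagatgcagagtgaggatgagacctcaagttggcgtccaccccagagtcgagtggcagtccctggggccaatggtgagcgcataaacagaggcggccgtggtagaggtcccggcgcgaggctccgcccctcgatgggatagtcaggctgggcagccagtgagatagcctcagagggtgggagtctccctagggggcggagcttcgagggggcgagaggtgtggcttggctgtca
Col17a1: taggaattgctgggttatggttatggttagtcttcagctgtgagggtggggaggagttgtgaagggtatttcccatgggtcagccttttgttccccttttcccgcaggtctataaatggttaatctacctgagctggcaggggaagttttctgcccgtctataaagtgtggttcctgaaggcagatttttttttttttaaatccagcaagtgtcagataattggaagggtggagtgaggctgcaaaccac

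The motifs searched were TGANTCA for AP-1, GCCNNNGGC for AP-2, CAGGTG for the E-box of ZEB and SNAI repressors, and the p63 half-site. Dsp held 1 match to the p63 half-site, which began 190 bases before the start, and 1 to the AP-2 motif, which began 75 bases before it. Jup and Col17a1 held 0 matches to these 4 motifs in this window. Of 32851 mouse promoter windows of the same length, 7.1% held the p63 half-site, 13.7% the AP-2 motif, 6.7% the AP-1 motif and 17.2% the E-box. A match is a run of letters and no measured binding.

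The linear signals came from Microarray Suite 5.0 and go no lower than 1, called the floor. The 95th percentile of 19 control probe sets for bacterial and yeast transcripts was 137.7, and signals up to that level are called within background here. The highest of these control signals was 256.8, so readings from 137.7 to 256.8 still lay within the range of the controls. Array medians lay between 102 and 135.7. The 3'/5' signal ratio of Actb, which rises with RNA decay, was 1.44 to 4.052 on tissue arrays, highest on adult replicate 1, and 1.064 to 1.196 on culture arrays. Every tissue array thus lay above every culture array in that ratio, and its part in the differences between tissue and culture was not tested.

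The tissue labelled stroma carried strong epithelial signals. Krt12, the keratin of differentiated corneal epithelium, was at 6554 to 7725 on the 5 tissue arrays and at 227.3 to 325 on the 9 culture arrays. Of 24 corneal epithelium markers tested, 18 were lower in keratocyte culture than in adult stroma, 1 was higher and 5 did not pass. In fibroblast and in myofibroblast culture 19 were lower and 1 was higher. The summed signal of these markers was 32860 to 36500 in adult and 34020 to 35360 in P10 stroma. In cultures it was 5047 to 7805 (keratocyte), 4570 to 8375 (fibroblast) and 4251 to 4501 (myofibroblast). These sums held Sprr1b, with means of 2405, 2488 and 2460 that were not called against the adult (1986). They also held Aldh3a1, with means of 2076, 1565 and 15.43 against 6771 in the adult. Of the 24 markers 16, 17 and 18 were within background on every array of the keratocyte, fibroblast and myofibroblast cultures. Epcam was at the floor on all 9 culture arrays. Between adult stroma and the cultures, the junction genes below moved with most of these markers. Other cell types moved too. Of 12 retina markers 10, 10 and 11 were lower in keratocyte, fibroblast and myofibroblast culture than in the adult, and of 6 lens markers 3, 4 and 4. Of 12 macrophage markers 7, 7 and 3 were higher and 0, 1 and 4 lower, and of 10 keratocyte markers 7, 5 and 5 were higher and 0, 1 and 2 lower. In the same order, of 6 pigment cell markers 4, 0 and 0 were higher and 0, 1 and 1 lower. Of 4 simple epithelium keratins 3, 3 and 4 were lower and 0 higher. Of 7 vascular endothelium markers 3, 3 and 3 were higher and 0, 0 and 1 lower. Of 2 corneal endothelium markers 1 was higher and 1 lower in each culture. The part of these cells in the results was not tested. In bulk samples fewer cells of a type and less RNA per cell cannot be told apart.

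All 10 genes were above background on all 5 tissue arrays. On the 9 culture arrays 6 of them, Dsp, Pkp1, Dsg2, Col17a1, Itgb4 and Lama3, were within background throughout. Ppl, Jup, Dsc2 and Perp crossed it on some or all. On no culture array did Ppl or Perp exceed the highest control signal of 256.8. Jup did so only on myofibroblast replicate 3 (319.5), and Dsc2 (97768_at) on some arrays, up to 333.7.

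**Figure D1:**
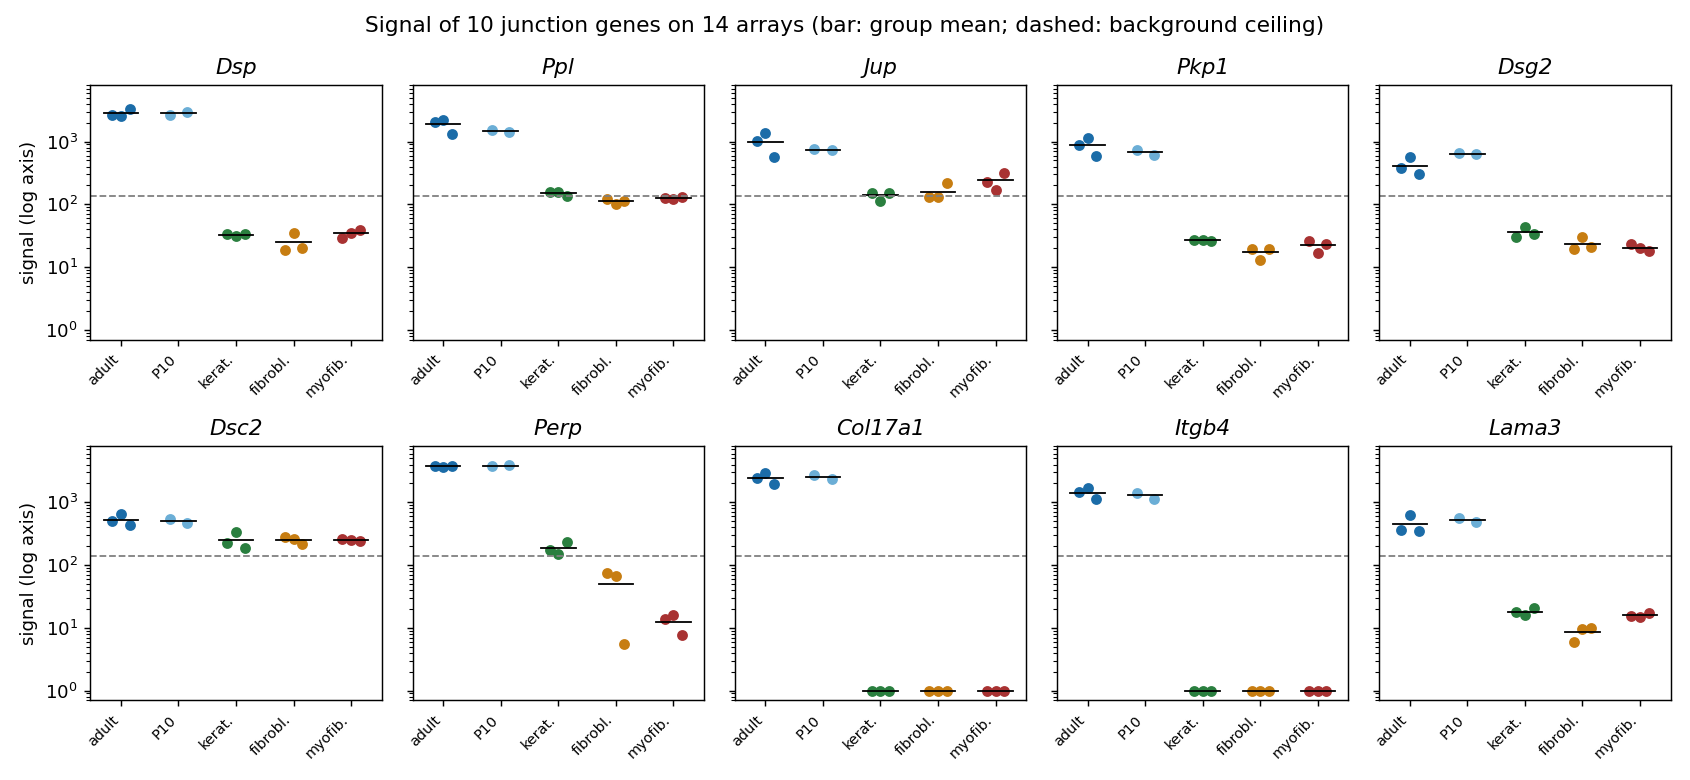
Signal of each gene (log axis) on every array by group, with the group mean as a bar and the background ceiling of 137.7 as a dashed line. In all 10 panels the adult and P10 points lie above every culture point, and Col17a1 and Itgb4 sit at the floor of 1 on all 9 culture arrays.

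The plaque proteins are described first. Dsp, desmoplakin (probe set 94247_at), was at 2620, 2576 and 3307 on adult replicates 1 to 3 and at 2625 and 2985 on the P10 arrays. In culture it was at 33.17, 31.39 and 33.44 (keratocyte), 18.71, 35.1 and 20.15 (fibroblast) and 29.39, 34.67 and 39.24 (myofibroblast). Every culture array was within background, and the 3 media overlapped. A second Dsp probe set did not pass the filter.

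Pkp1, plakophilin 1, which clusters desmosomal proteins in suprabasal cells, was at 894.2, 1134 and 581.8 in adult and 727 and 614.2 in P10 stroma (99996_at). All 9 culture arrays read between 13.19 and 27.02. Its other probe set, 97601_f_at, read 1557, 1469 and 933.3 in the adult, 1067 and 1043 at P10, and the floor on all culture arrays. Both probe sets were thus above background in tissue and within it in culture. The suffix _f marks probe sets whose probes can match several members of a sequence family, so the second is no independent check.

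Ppl, periplakin, a plakin that links keratin to the desmosome and the cell envelope, was at 2075, 2214 and 1336 in adult and 1558 and 1405 in P10 stroma. Keratocyte cultures read 155.4, 154.7 and 136.9, fibroblast cultures 120.1, 102.8 and 111.8, and myofibroblast cultures 126.8, 123.4 and 129.2. Only keratocyte replicates 1 and 2 exceeded background, by little.

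Jup, plakoglobin, is the plaque protein that also serves at adherens junctions. It was at 1036, 1359 and 567.4 in the adult and at 755.5 and 737.4 at P10. It read 152.9, 111.7 and 151.8 in keratocyte, 128.6, 129.2 and 217.3 in fibroblast and 230.5, 170 and 319.5 in myofibroblast cultures. All 3 myofibroblast arrays were above background, and the highest of them was still below the lowest adult array.

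Of the cadherins, Dsg2, desmoglein 2, was at 382.4, 561.7 and 301.2 in adult and 650.7 and 624.7 in P10 stroma, and between 17.76 and 43.21 in culture (104480_at). A dimmer probe set for Dsg2 read at most 84.08 on any array and so stayed within background in tissue as well. It was called lower in keratocyte culture (adjusted p = 0.0189) but not in fibroblast or myofibroblast culture (0.172 and 0.468). Dsc2, desmocollin 2, gave different pictures by probe set. The probe set 97768_at read 500.7, 643 and 437.3 in the adult, 540.3 and 474.1 at P10, and 188.3 to 333.7 over the 9 culture arrays, above background on all of them. The probe set 103506_f_at read 1440, 1280 and 961.5 in the adult and 1348 and 1320 at P10, but 1 to 29.91 in culture. As for Pkp1, the suffix _f marks probes that can match several members of a sequence family. Among the probe sets used below, those for Pkp2, Itgb1, Cd151, Cldn7 and Ptgds carry it too. Which of the Dsc2 probe sets tracks that gene in culture was not tested.

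Perp, a membrane protein of desmosomes and a target of p63, was the steadiest in tissue, at 3809, 3594 and 3847 in the adult and 3770 and 3920 at P10. Keratocyte cultures read 176.9, 152.1 and 230.8, fibroblast cultures 75.78, 65.85 and 5.59, and myofibroblast cultures 13.87, 16.18 and 7.666. The keratocyte arrays were the only culture arrays above background for Perp.

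Among hemidesmosome genes, Col17a1, collagen XVII, was at 2467, 2924 and 1986 in adult and 2741 and 2339 in P10 stroma. Itgb4, the beta4 integrin, was at 1458, 1681 and 1122 in the adult and 1432 and 1149 at P10. Both were at the floor of 1 on every culture array. Lama3, the alpha chain of laminin-332, the ligand of these receptors, was at 364.5, 621.7 and 353.5 in adult and 555.2 and 492.6 in P10 stroma, and at 5.858 to 20.61 in culture.

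Cultures were set against adult stroma to compare the levels of these genes in cultured stromal cells and in tissue with epithelial signals. A lower level in culture is a difference between samples and no measured loss by the cells that were cultured. All 10 genes were lower in keratocyte culture, where 9.25% of the 10370 probe sets tested were called lower and 21.8% higher at an adjusted p below 0.05. All 10 were also lower in fibroblast culture (12.3% of probe sets lower, 18.4% higher) and in myofibroblast culture (15.5% lower, 17.5% higher). In each case every culture array lay below every adult array. The share of all probe sets separated in this way, here and in the comparisons below, is not given. Separation alone therefore does not set these genes apart. The median difference of log2(signal + 16) over the 10 genes was -3.97, -4.44 and -4.16 in keratocyte, fibroblast and myofibroblast culture, against 0.12, 0.04 and -0.01 over all probe sets. For genes within background in culture these fitted differences depend on the added constant. These comparisons share the adult arrays, and 6 of the 10 genes passed the filter only through tissue.

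The genes differed in how far their culture signals lay below adult stroma. Where every culture array was within background, a fold could only be bounded, as the adult mean over the background ceiling (geometric means). In all 3 cultures Dsp was at least 20.4-fold lower, Col17a1 at least 17.6-fold, Itgb4 at least 10.2-fold, Pkp1 at least 6.09-fold, Lama3 at least 3.13-fold and Dsg2 at least 2.91-fold. Ppl was at least 13.3-fold and Perp at least 27.2-fold lower in fibroblast and myofibroblast cultures. These bounds also rise with the level in tissue, so they do not order the genes by their change. They hold for the background ceiling and would be smaller against the highest control signal of 256.8.

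Jup was above background on all 3 myofibroblast arrays, on 2 of 3 keratocyte arrays and on 1 of 3 fibroblast arrays. Its mean ± SD was 987.6 ± 398.1 (n = 3) in the adult against 138.8 ± 23.47, 158.4 ± 51.05 and 240 ± 75.21 (n = 3 each) in keratocyte, fibroblast and myofibroblast culture. The differences were -2.62, -2.48 and -1.93 (SE 0.30 each, limma adjusted p = 1.25e-05, 2.07e-05 and 0.000193). Ppl in keratocyte culture fell by 3.49 on that scale (SE 0.18, adjusted p = 3.25e-09), from 1875 ± 471.9 to 149 ± 10.5 (n = 3 each).

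Dsc2 changed least by 97768_at, from 527 ± 105.3 to 250.3 ± 74.99, 252 ± 34.34 and 251.2 ± 6.175 (SD, n = 3 each), differences of -1.05, -1.01 and -1.01 (SE 0.20, adjusted p = 0.00127, 0.00168 and 0.00162). By 103506_f_at, within background on all culture arrays, Dsc2 was at least 8.79-fold lower in all 3 (adjusted p = 1.26e-09, 4.28e-10 and 1.20e-09). Both probe sets called Dsc2 lower. For Perp the difference in keratocyte culture, where all 3 arrays were above background, was -4.23 (SE 0.40, adjusted p = 1.54e-06). In fibroblast and myofibroblast culture it was called lower (adjusted p = 3.26e-08 and 6.78e-09), with the bound above as its size.

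**Figure D2:**
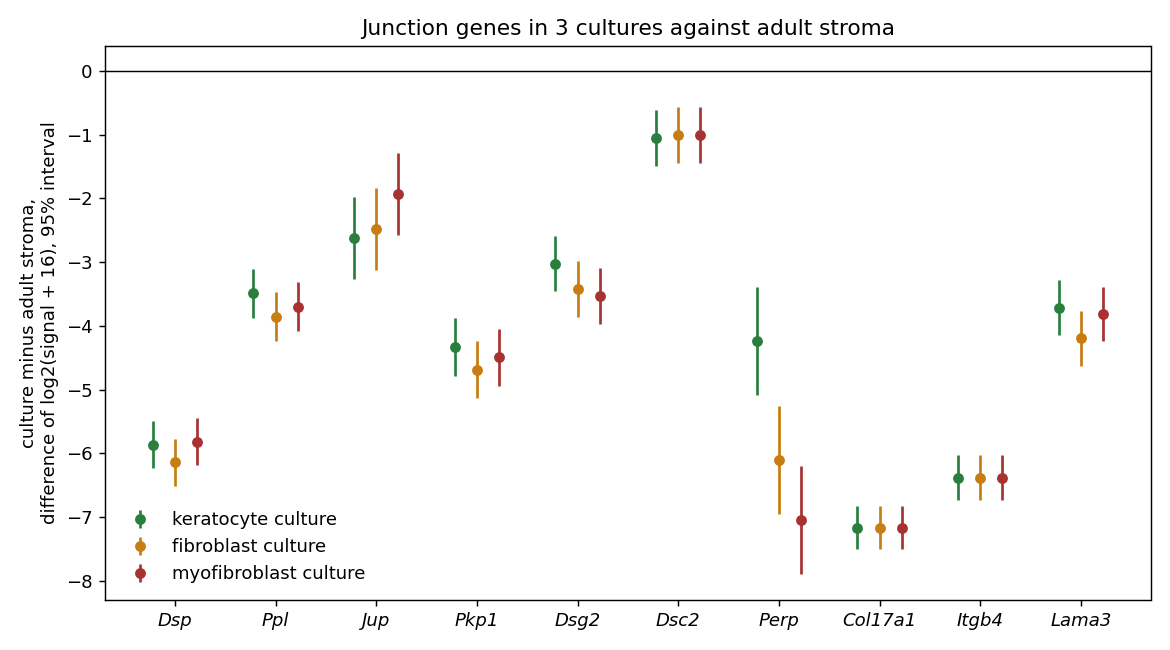
Difference of log2(signal + 16) between each culture and adult stroma for the 10 genes, with the 95% interval of the fit, 3 arrays a group. All 30 points lie below 0. Points of genes within background in a culture (Dsp, Pkp1, Dsg2, Col17a1, Itgb4 and Lama3 in all 3, Ppl and Perp in fibroblast and myofibroblast) depend on the added constant and have no order.

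The cultures were then compared with each other, fibroblast with keratocyte culture for the change of serum and myofibroblast with fibroblast culture for TGF-beta1. In fibroblast culture Perp fell below keratocyte culture, from 186.6 ± 40.24 to 49.07 ± 37.98 (SD, n = 3 each), a difference of -1.88 (SE 0.40, adjusted p = 0.0325). All fibroblast arrays were within background, so against the background ceiling the size is bounded at 1.33-fold or more. The keratocyte arrays, at 152.1 to 230.8, all lay below the highest control signal of 256.8. Against that level no bound can be given. The fitted difference was -1.21 without fibroblast replicate 3, which read 5.59, and the call held there (adjusted p = 0.0149). Perp was the only called gene of the 10, and 1.18% of probe sets were lower and 0.193% higher in fibroblast culture. The call was lost without keratocyte replicate 1 (adjusted p = 0.121), 2 (0.0588) or 3 (0.172), with an added constant of 1 (0.131) and with only these groups in the fit (0.297). The epithelium list had 1 of 24 markers lower in the same comparison, Pax6, a transcription factor of the eye's surface and other eye tissues, at 177.5 to 299.4 in keratocyte and 1.86 to 59.19 in fibroblast cultures. Krt12 was at 227.3 to 252.5 and 230.6 to 286.9. Of 6 pigment cell markers 4 were also lower, with a summed signal of 1992 to 2354 in keratocyte and 438.9 to 677.5 in fibroblast cultures. Of 12 macrophage markers 4 were lower, Cd68, C1qa, C1qc and Tyrobp, with a summed signal of the list of 3440 to 4359 and 1738 to 3192. The 7 vascular endothelium markers had 1 lower, Cdh5, and the 10 keratocyte markers 1, Ptgds. The part of other cells in the change of Perp was not tested.

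Of the other genes, Ppl (149 ± 10.5 against 111.6 ± 8.694, n = 3 each, adjusted p = 0.608), Pkp1, Dsg2 and Lama3 had every fibroblast array below every keratocyte array without passing the test, the last 3 within background on all 6 arrays. The share of all probe sets separated in that way is not given, so this is a description only. Jup (adjusted p = 0.938) and Dsc2 (0.98) overlapped, with 95% intervals of the difference from -0.50 to 0.79 and from -0.40 to 0.48.

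With TGF-beta1 none of the 10 genes was called by limma, while 0.289% of probe sets were higher and 0.781% lower, and 1 gene, Perp, had an unadjusted p below 0.05. With the replicate block, which pairs arrays of 1 number, 173 probe sets were called in place of 111 and again 0 of the 10 genes. Jup was higher on the myofibroblast array of every replicate number, by 101.9, 40.8 and 102.2 signal units. The limma fit without pairs gave a log2 difference of 0.55 (SE 0.30, 95% interval -0.10 to 1.20, adjusted p = 0.738, and 0.609 with the replicate block). That SE and interval take no account of the pairs. Group ranges of Jup overlapped, since fibroblast replicate 3 (217.3) lay above myofibroblast replicate 2 (170). Ppl was also higher on every myofibroblast array of a pair, by 6.7, 20.6 and 17.4 units, as was Lama3, by 9.722, 5.148 and 7.299, and Pkp1, by 6.81, 3.7 and 3.91. For Ppl and Lama3 the groups did not overlap (adjusted p = 0.939 and 0.716), and all 3 genes were within background on all 6 arrays. The shares of all probe sets that did not overlap, or were higher in every pair, are not given. Perp was within background on all 6 arrays, at 49.07 ± 37.98 and 12.57 ± 4.404 (SD, n = 3 each, adjusted p = 0.534). Without fibroblast replicate 3, where Perp read 5.59, it was called lower (-1.61, adjusted p = 0.00121). That array also stood apart in Acta2, the actin of myofibroblasts, with 638.4 against 2544 and 2954 on fibroblast replicates 1 and 2. Acta2 was at 3066, 3167 and 3347 in keratocyte and 3061, 2954 and 2932 in myofibroblast cultures, so it did not mark the myofibroblast medium. It was not called between myofibroblast and fibroblast culture (limma adjusted p = 0.716). Why fibroblast replicate 3 differed was not tested. Dsc2 by 97768_at differed by 0.0038 (95% interval -0.43 to 0.44).

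**Figure D3:**
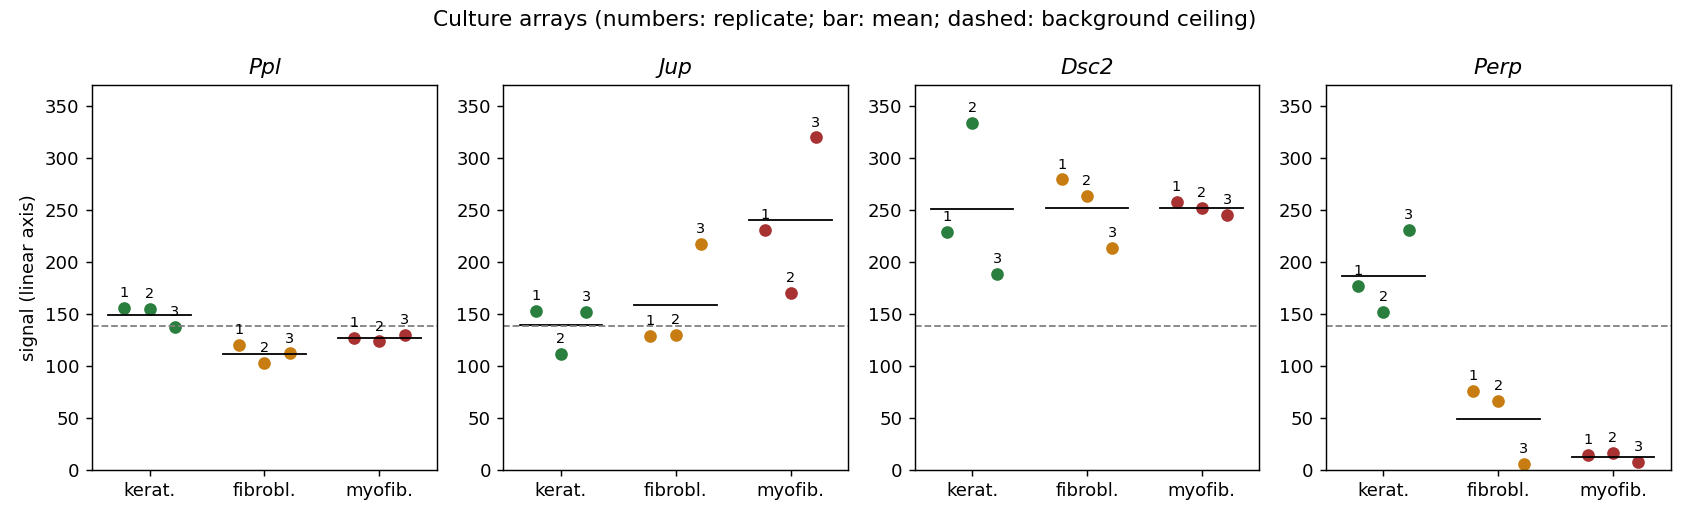
Signal (linear axis) of the 4 genes with a culture array above background, by culture, numbered by replicate, with the mean as a bar and the ceiling of 137.7 dashed. Jup lies highest in myofibroblast cultures, up to 319.5, Perp lies above the ceiling in keratocyte cultures only, and the Dsc2 means of the 3 media are 250.3 to 252.

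Adult and P10 stroma were compared for change with age. None of the 10 genes was called by limma, where 0.453% of probe sets were higher and 3.26% lower in the adult, and 1 of them, Dsg2, had an unadjusted p below 0.05. The median difference over the 10 genes was 0.02, against -0.12 over all probe sets. Dsg2 was at 415.1 ± 133.3 (SD, n = 3) in the adult and 637.7 ± 18.39 (SD, n = 2) at P10, and every adult array lay below both P10 arrays. That difference of -0.65 had a 95% interval from -1.14 to -0.15 and an adjusted p of 0.164, which became 0.0258 without adult replicate 2 (-0.88). The other 9 genes overlapped between ages. The share of all probe sets separated between ages is not given, so the separation of Dsg2 is a description only. Of the 24 corneal epithelium markers 4 were called lower in the adult, Krt4, Krt14, Krt15 and Krt16, and 1 higher, Cldn7. Of 6 pigment cell markers 3 were lower, of 10 keratocyte markers 2 and of 4 simple epithelium keratins 1, with 0 higher. The part of these cells in the comparison of ages was not tested.

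Intervals show what the arrays could resolve. For Dsp the difference was 0.0081 (95% interval -0.41 to 0.43), for Col17a1 -0.06 (-0.43 to 0.31) and for Itgb4 0.13 (-0.28 to 0.53), so changes of 2-fold lay outside them. Ppl, Jup and Pkp1 were 0.31, 0.31 and 0.32 higher in the adult, with intervals from -0.13 to 0.74, -0.41 to 1.03 and -0.18 to 0.83. Lama3 was at -0.27 (-0.75 to 0.21) and Dsc2 at 0.04 (-0.45 to 0.53). The interval of Perp (-0.99 to 0.91) was the widest of the 10, although its 5 tissue arrays ranged only from 3594 to 3920, since the fit takes 1 spread per gene over all groups and Perp varied in culture.

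**Figure D4:**
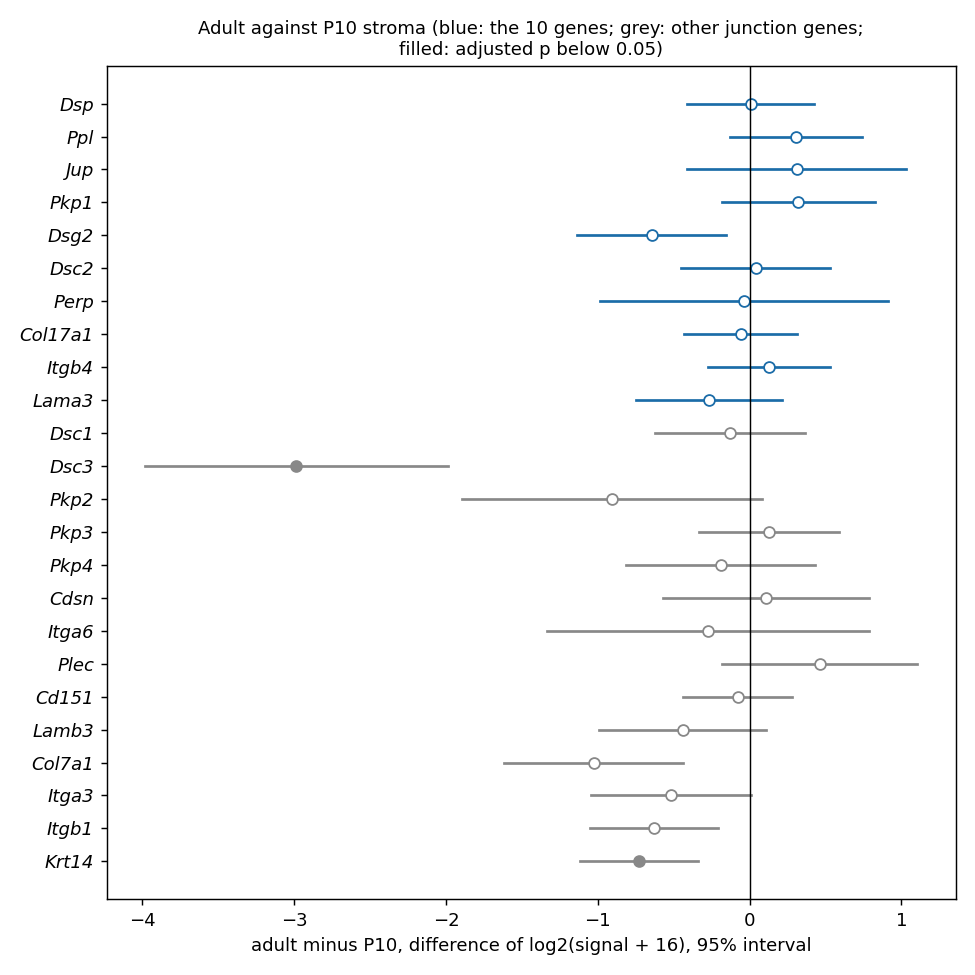
Difference of log2(signal + 16), adult minus P10, with 95% intervals, for the 10 genes (blue) and 14 other junction genes (grey), with filled points for an adjusted p below 0.05. All 10 blue points are open, and Dsc3 and Krt14 are the filled points, both below 0.

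Among the adult arrays, replicate 3 had the lowest of the 3 adult signals for 8 of the 10 genes and adult replicate 2 the highest for the same number, Dsp and Perp being the exceptions in both. The median deviation of the 10 genes from their mean over the 5 tissue arrays was -0.32 on adult replicate 3 and 0.32 on replicate 2 on the log2 scale. Of 22 other epithelium markers above background on all tissue arrays, 13 were lowest on adult replicate 3 and 13 highest on replicate 2, with median deviations of -0.15 and 0.17. Replicate 1, with the highest 3'/5' ratios, was lowest for 0 of the 10 junction genes and for 8 of the 22 markers. Of 8 keratocyte markers above background on all tissue arrays, 4 were lowest on adult replicate 3 and 2 highest on replicate 2. Their median deviations were -0.22, -0.43 and -0.49 on adult replicates 1 to 3. The shares of all probe sets lowest or highest on each array are not given. Genes on 1 array share its RNA, so these counts describe 3 arrays and were not tested.

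**Figure D5:**
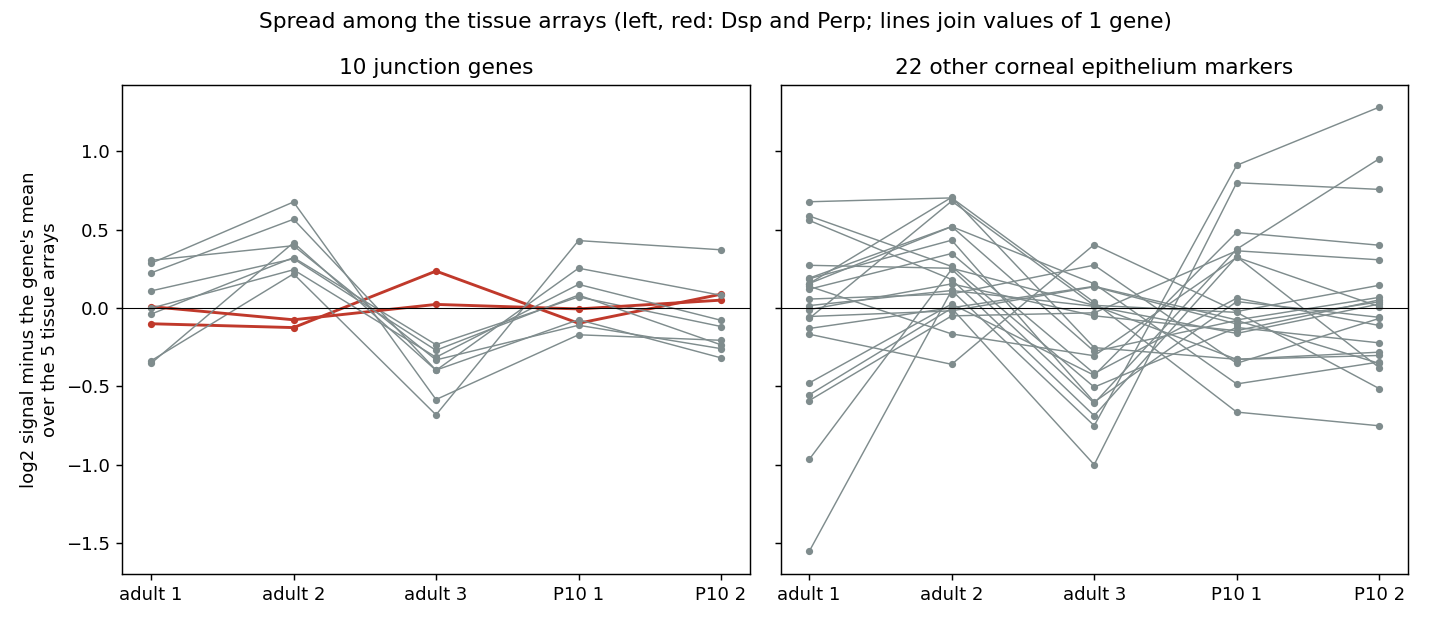
Log2 signal of each gene minus its mean over the 5 tissue arrays, for the 10 junction genes (left, Dsp and Perp in red) and 22 other corneal epithelium markers (right), with lines joining 1 gene's values. On the left 8 of 10 lines dip at adult replicate 3, to as low as -0.68 for Dsg2, while Dsp is at 0.24 and Perp at 0.02.

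Further genes of these junctions were listed from general knowledge. Of 12 further desmosome genes 6 were on the array under their symbol. Against adult stroma 2 of the 6 were lower and 1 higher in keratocyte culture, and 3 lower and 1 higher in both fibroblast and myofibroblast cultures. Pkp3, a plakophilin found throughout stratified epithelium, fell from 564.1 ± 111.6 to 229.2 ± 38.36, 164.7 ± 28.32 and 140.7 ± 23.1 in keratocyte, fibroblast and myofibroblast culture (SD, n = 3 each, adjusted p = 0.000203, 1.16e-05 and 3.43e-06). Pkp4, an armadillo protein of cell contacts that is not limited to epithelia, was at 400.6 ± 64.82 in the adult and 381.9 ± 72.58 in keratocyte culture (adjusted p = 0.868), but fell to 172.6 ± 66.74 and 110.1 ± 34.62 in fibroblast and myofibroblast culture (adjusted p = 0.00283 and 0.00012). Pkp2, the plakophilin of simple epithelia and heart, was called higher in all 3 cultures (adjusted p = 0.0137, 0.0138 and 0.0116), from 17.97 to 31.89 in the adult, with only fibroblast replicate 3 (203.7) and myofibroblast replicate 3 (169.4) above background.

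Dsc3, the desmocollin of basal cells, was lower in the adult than at P10, from 370.7 and 246.7 to 1, 60.64 and 34.04 (-2.99, adjusted p = 0.00215, at least 2.2-fold). It was the only gene of these 6 called between the ages. It was at the floor in every culture array, a level called lower than that of the adult, which itself was within background.

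Of 11 further hemidesmosome and anchoring genes 9 were on the array and 8 were tested, Krt5 being too dim. In keratocyte culture 4 of the 8 were lower than in the adult and 1 higher, in fibroblast culture 4 and 2, and in myofibroblast culture 5 and 2. Krt14, the basal keratin that hemidesmosomes anchor, was at 1014, 1437 and 1049 in the adult and at most 3.993 in culture, at least 8.36-fold lower in all 3 cultures. Itga6, the partner of beta4, was at 348.8, 186.1 and 246.6 in the adult and at most 91.46 in culture (adjusted p = 0.0111, 5.91e-05 and 3.01e-05). Lamb3, the beta chain of laminin-332, went from 239 ± 43.62 to 25.92 ± 2.823, 30.2 ± 6.893 and 41.34 ± 20.37 (SD, n = 3 each, adjusted p = 8.8e-07, 1.4e-06 and 4.02e-06). Lama3 and Lamb3, chains of 1 laminin, thus both fell.

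The other 5 tested genes of this list are named after their values were seen. Itga3, the alpha3 integrin, a laminin receptor, was called in none of the 6 comparisons. Plec, plectin, fell from 822 ± 228.5 to 334.6 ± 77.2, 332.6 ± 103.9 and 305.7 ± 63.53 (adjusted p = 0.00256, 0.00212 and 0.00123) and stayed above background. Itgb1, the common beta1 integrin, rose from 906.2 ± 176.3 to 2637 ± 433.7, 2444 ± 324.1 and 2616 ± 327.4 (adjusted p = 1.2e-05, 2.27e-05 and 1.08e-05). Col7a1, the collagen of anchoring fibrils, rose from 458.6 ± 78.7 to 981 ± 218.8 in fibroblast and 1241 ± 316.4 in myofibroblast culture (adjusted p = 0.00439 and 0.000546) and was at 689.3 ± 121.3 in keratocyte culture (adjusted p = 0.0929). Cd151, a tetraspanin of hemidesmosomes, was called lower in myofibroblast culture than in adult stroma (615.4 ± 80.25 against 1113 ± 62.19, adjusted p = 0.000569), and the difference from fibroblast culture did not pass (adjusted p = 0.191). All groups named here had n = 3. Between adult and P10 stroma only Krt14 of the 8 was called, at 1166 ± 235 (n = 3) against 1918 ± 77.06 (n = 2, adjusted p = 0.0398), and between cultures 0 of the 14 further genes were called.

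Among the 7427 other genes, those whose log2(signal + 16) was most like that of Dsp over the 14 arrays were Mal, Krt12, Krt6a, 2610528A11Rik and Ces1d, with Pearson r of 0.9973, 0.9967, 0.9962, 0.9955 and 0.9941. For Itgb4 they were Ces1d, 2610528A11Rik, Fgfbp1, Mal and Sfn, with r of 0.9997, 0.9997, 0.9994, 0.9980 and 0.9977. Each of the 7 genes was above background on all tissue arrays and within it on all culture arrays, except Krt12 in culture. Since the arrays fall into a tissue and a culture cluster, r measures that gap, and it is given as a description.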

How the data were processed

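RNA of 14 samples was read on 1 array each, from 5 µg of total RNA. The values are intensity signals that the authors deposited, made with Microarray Suite 5.0 and scaled to a target of 150 per the labels. The deposited values have no detection calls, and the sources used here do not say how the floor of 1 arose or name a genome build. The 12488 probe sets included 66 controls, which were removed, and 10370 of the remaining 12422 had a group mean of 50 or more. Symbols came from the platform annotation (10833 probe sets with 1 symbol, 396 with several, 1193 with none), and for 10817 the gene was also in RefSeq. Where several probe sets of 1 gene passed, that of the highest mean log2 over all arrays was taken.

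One limma model (version 3.58.1, R 4.3.3) of log2(signal + 16) covered all 14 arrays, with 1 mean per group and a variance trend (9 residual degrees of freedom). The tests were two-sided, with Benjamini-Hochberg adjustment over the 10370 probe sets of each of 6 comparisons. The script was tested on simulated data. Means and SDs are of deposited signals, and the number of arrays limits the precision. The genes, lists and alternatives were chosen with earlier results of these data known. All 10 genes are named, with up to 3 called genes with the largest differences per further list and comparison, the 5 genes most like Dsp and Itgb4, and reference genes. Replicate numbers were taken to pair arrays where deviations from group means correlated over 0.1 for every number, which held only for myofibroblast and fibroblast cultures (r = 0.623, 0.682 and 0.533). In that comparison the replicate block, fitted over all 14 arrays, gave 173 called probe sets in place of 111.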

Additional observations from a re-analysis of the deposited data

How the results depend on the processing

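The 10 genes stayed lower in every culture than in adult stroma, with an adjusted p below 0.05, under each alternative run: added constants of 1 and 64, a filter at 100 or none, quantile scaling, median centring, a fit of only the compared groups, the replicate block, the median over probe sets, leaving out each array, and the other probe sets of Dsc2 and Pkp1, chosen after seeing the data. The dim second probe set of Dsg2, within background on all arrays, was not called in fibroblast (adjusted p = 0.172) or myofibroblast culture (0.468). The sizes moved with the constant, that of Col17a1 from -10.25 with 1 to -5.26 with 64. Between fibroblast and keratocyte culture the call of Perp was lost, leaving 0 genes, with a constant of 1 and in the fit of the compared groups, and the count ran from 0 to 1 over left-out arrays. Over left-out arrays it also ran from 0 to 1 for adult minus P10 and for myofibroblast minus fibroblast.

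Called probe sets went from 142 in fibroblast minus keratocyte to 83 with a constant of 1, 46 with the compared groups, 214 with the replicate block and 20 to 144 over left-out arrays. Adult minus P10 went from 385 to 225, 628 with the block, and 117 to 495. Myofibroblast minus fibroblast went from 111 to 16, 173 with the block, and 61 to 151. The block changed no other count of the 10 genes.

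Differences near 0 changed sign without passing the test. Adult minus P10, Perp turned to 0.0053 after quantile normalization, 0.14 after centring and 0.12 with the block, Col17a1 to 0.11 after centring, Dsp to -0.022 with the block, and Dsc2 to -0.050 as the median over probe sets and -0.14 by its other probe set. Fibroblast minus keratocyte, Dsc2 turned to -0.28 and -0.60 by these. Over left-out arrays adult minus P10 ran from -0.19 to 0.085 for Col17a1, -0.11 to 0.16 for Dsc2, -0.11 to 0.10 for Dsp and -0.031 to 0.28 for Itgb4, fibroblast minus keratocyte from -0.14 to 0.25 for Dsc2 and -0.083 to 0.26 for Jup, and myofibroblast minus fibroblast from -0.10 to 0.078 for Dsc2. The cause of these changes was not tested. Signals within background limit what can be said of Dsp, Pkp1, Dsg2, Col17a1, Itgb4 and Lama3 in culture.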
